A study of Mus musculus with 2 samples.

Results

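The beta-cell and islet lineage transcription factors are a set of 30 genes, chosen by symbol from the 27179 gene rows of the deposited count table. Each of the 30 symbols matched 1 row. They were compared between 2 RNA sequencing libraries of MIN6, an insulin-producing mouse insulinoma line often used in place of primary beta cells. In C2cd4a-GFP cells a fusion of C2cd4a and green fluorescent protein was expressed, and in control-GFP cells the control construct was. Both received adenovirus, with a multiplicity of infection of 100, in medium with polybrene, and RNA was taken 72 to 96 h after infection. Both treatment texts mention the fusion construct alone, and the groups were therefore taken from the sample titles and the characteristic that names the expressed protein. Forced expression of this kind in a tumour line is not the level or setting of the cells' own gene.

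There was 1 library per condition, so no difference below has a replicate check. The libraries held 30164106 counts (C2cd4a-GFP) and 31039999 counts (control-GFP). C2cd4a itself had 49238 counts in C2cd4a-GFP cells and 133 in control-GFP cells, as the labels say. Levels below are counts scaled to library size with TMM (CPM), and levels of different genes are compared per kilobase of exon (RPKM). Each ratio is C2cd4a-GFP over control-GFP on the log2 scale, followed by a 95% exact counting interval, which covers counting error only. In bulk RNA a change in the share of cells that express a gene and a change in RNA per cell cannot be told apart. Rose and fell describe genes that the authors' deposited table lists with a DESeq2 adjusted p below 0.05. No source used here says how many libraries entered that table.

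Islet cells acquire and keep their identity through a network of DNA-binding proteins that activate one another and the hormone genes. PDX1 and the forkhead proteins FOXA1 and FOXA2 act from the early pancreas onward. NEUROG3 starts the endocrine programme for a short time, and factors such as NEUROD1, NKX2-2, PAX6, ISL1 and INSM1 carry it on, while MAFA and NKX6-1 mark the functional beta cell. Loss of several of these proteins in mice or humans impairs insulin secretion or causes diabetes.

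The factors differed between the libraries about as much as all measured genes did, with Bach2 and Mnx1 at the ends of their range. Of the 30 factors, 25 had a mean of at least 1 CPM, 4 had 0 counts in both libraries, and Tcf7l2 had 2 counts in C2cd4a-GFP cells and 1 in control-GFP cells. The median log2 ratio of the 25 was 0.004, beside -0.006 over all 12759 genes with that mean. Among the 25, 12 lay within 0.2 of equality on the log2 scale, close to the 48.2% of all measured genes that did so. Bach2 was at least 1.5-fold higher, with an interval that excluded equal levels, and Mnx1 was at least 1.5-fold lower. Across all measured genes 4.23% were higher and 4.23% lower by this rule, so 1 of 25 in each direction is near the background. The interval lay above equality for 10 of the 25 (30.6% of all measured genes) and below it for 8 (33.0%), and it included equality for 7. The authors' deposited table gives 25 of the factors an adjusted p, and of these 3 rose (7.0% of all genes) and 1 fell (6.58%). The 3 that rose were Bach2, Neurod1 and Rfx3, and Mnx1 fell.

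**Figure D1:**
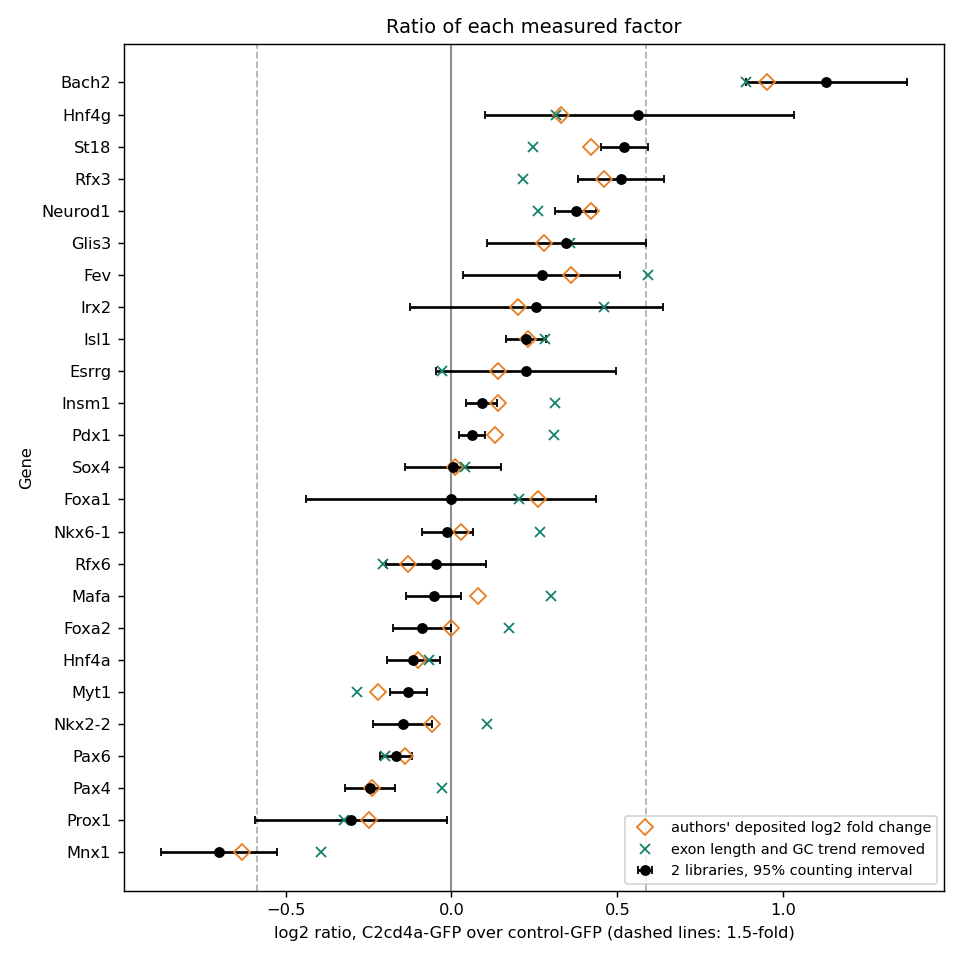
Log2 ratio of C2cd4a-GFP over control-GFP for the 25 factors with a mean of at least 1 CPM, 1 gene per row. Black points are the 2 libraries with 95% counting intervals, diamonds the log2 fold change of the authors' deposited table and crosses the ratio with the trend in exon length and GC removed; dashed lines mark 1.5-fold. Bach2 stands at the top (1.13) and Mnx1 at the bottom (-0.70), with 12 factors within 0.2 of equality.

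The sequences upstream of the 4 factors that rose or fell in the authors' deposited table are given next, since these are the regulatory regions nearest to the genes that differed. RefSeq windows (GRCm38.p6, the same assembly as mm10) were matched by gene ID for 25 of the 30 factors. For these 4 the RefSeq start site is the same base as the first transcribed base in the count table. Each run holds the 250 bases before that start, 5′ to 3′ on the gene's strand, with matches to the E-box CANNTG, the site type bound by NEUROD1 and other basic helix-loop-helix proteins, in capitals.
Bach2, chr4:32417185-32417434, plus strand: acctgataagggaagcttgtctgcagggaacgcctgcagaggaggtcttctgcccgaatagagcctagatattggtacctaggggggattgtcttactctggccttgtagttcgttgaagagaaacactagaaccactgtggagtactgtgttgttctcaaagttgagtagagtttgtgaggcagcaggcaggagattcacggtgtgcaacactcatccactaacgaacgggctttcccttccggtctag
Neurod1, chr2:79456637-79456886, minus strand: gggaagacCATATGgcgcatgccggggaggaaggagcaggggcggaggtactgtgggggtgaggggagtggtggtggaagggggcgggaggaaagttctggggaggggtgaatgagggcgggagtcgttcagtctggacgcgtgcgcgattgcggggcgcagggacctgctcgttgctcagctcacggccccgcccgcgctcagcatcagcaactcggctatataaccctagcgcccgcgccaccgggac
Rfx3, chr19:28011167-28011416, minus strand: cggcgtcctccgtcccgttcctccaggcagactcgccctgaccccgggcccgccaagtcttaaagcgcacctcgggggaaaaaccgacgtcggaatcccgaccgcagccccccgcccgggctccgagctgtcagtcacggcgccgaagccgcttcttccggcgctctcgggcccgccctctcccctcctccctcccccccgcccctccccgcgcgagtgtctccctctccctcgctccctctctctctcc
Mnx1, chr5:29478471-29478720, minus strand: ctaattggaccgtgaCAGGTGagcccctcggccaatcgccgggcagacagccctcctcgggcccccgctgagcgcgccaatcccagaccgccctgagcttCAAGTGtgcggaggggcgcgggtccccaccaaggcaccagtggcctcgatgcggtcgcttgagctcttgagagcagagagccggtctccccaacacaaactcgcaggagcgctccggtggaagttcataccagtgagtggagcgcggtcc

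The 4 regions differ in base composition. Bach2 has 7 CpG dinucleotides in these 250 bases and a GC content of 50.4%, whereas Neurod1 has 22 CpG (67.6% GC), Rfx3 has 30 (72.8%) and Mnx1 has 21 (66.4%). The median was 19 CpG over the 25 factors with a window and 6 over 32851 RefSeq windows. Both strands were searched for 4 motifs. The E-box CANNTG occurs once upstream of Neurod1 and at 2 places upstream of Mnx1, and it is in 15 of the 25 factors' windows, against 66.2% of all windows. The homeodomain motif TAATTA was found in 1 of the 25 (4.84% of all windows), the forkhead motif GTAAACA in 1 (3.17%) and the ETS motif GGAAGT in 3 (19.7%), one of them Mnx1. A match is a run of letters and no measurement of binding.

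Levels of the factors spanned more than the range seen between libraries. Pdx1 led with 281 RPKM in C2cd4a-GFP cells and 269 RPKM in control-GFP cells, above 98.0% of all measured genes by the mean of both. A group of 7 followed between 48.1 and 79.6 RPKM in C2cd4a-GFP cells, and between 47.3 and 74.8 RPKM in control-GFP cells: Insm1, Mafa, Pax4, Pax6, Isl1, Neurod1 and Nkx6-1. Within it the order was not firm. In the C2cd4a-GFP library the counting intervals of Neurod1 (61.2 RPKM), Pax4 (61.2), Isl1 (60.7) and Pax6 (60.5) overlapped from each to the next, and in control-GFP cells the same held for Insm1 (74.8 RPKM), Pax4 (72.5) and Mafa (72.3). At the low end Bach2, Foxa1 and Hnf4g stood at 1.73, 0.922 and 0.774 RPKM in C2cd4a-GFP cells, and at 0.793, 0.923 and 0.524 RPKM in control-GFP cells.

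**Figure D2:**
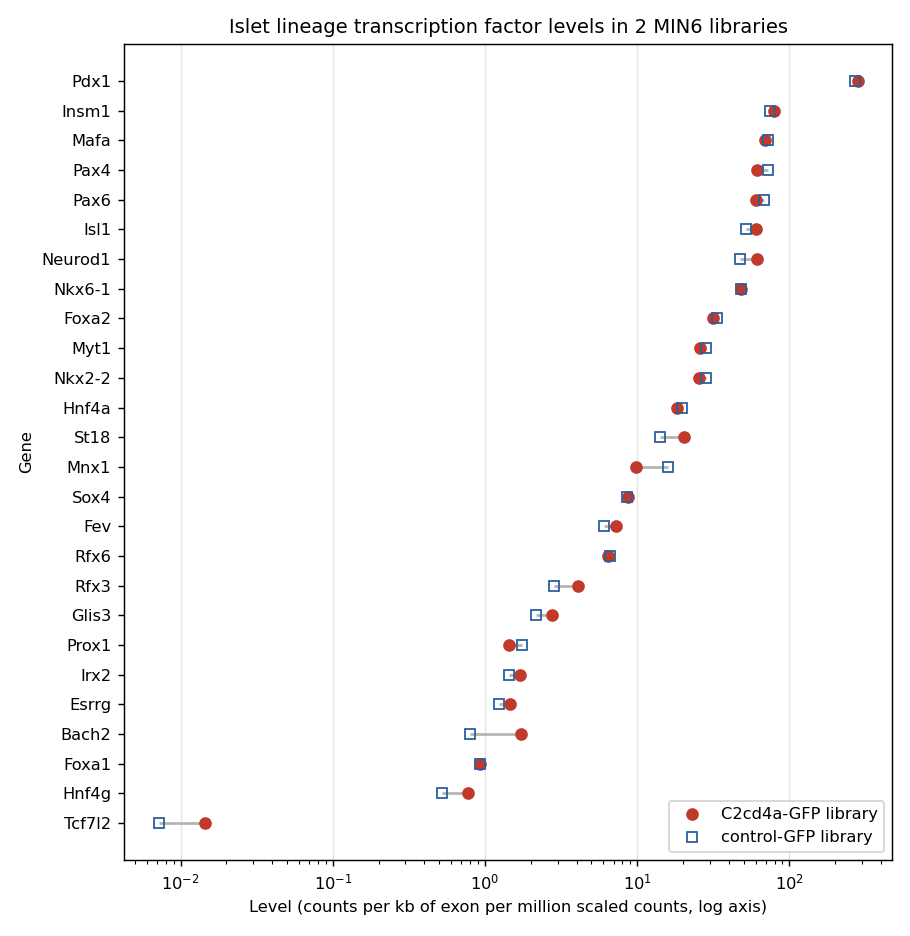
Level of each of the 26 factors with any count, in counts per kb of exon and scaled to library size (RPKM, log axis), with filled circles for the C2cd4a-GFP library and open squares for the control-GFP library. Pdx1 is highest, at 281 RPKM in C2cd4a-GFP cells and 269 RPKM in control-GFP cells, and the visible gaps between symbols are those of Bach2, Mnx1, St18, Rfx3, Hnf4g and Neurod1; the gap of Tcf7l2 rests on 2 counts in C2cd4a-GFP cells and 1 in control-GFP cells.

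Summed over all 30 genes, the set made up 2040 CPM in C2cd4a-GFP cells and 1979 CPM in control-GFP cells. Pdx1 alone gave 17.7% of this sum in C2cd4a-GFP cells and 17.5% in control-GFP cells. The 5 most abundant factors (Pdx1, Pax6, Insm1, Myt1 and Isl1) together gave 56.1% in C2cd4a-GFP cells and 57.4% in control-GFP cells.

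The ratios of the 8 core beta-cell factors lay between -0.17 and 0.37, with Neurod1 at the upper end. Pdx1, the homeodomain activator of insulin and of many beta-cell genes, had 11060 counts (361 CPM) in C2cd4a-GFP cells and 10583 (346 CPM) in control-GFP cells, a ratio of 0.06 (0.02 to 0.10). Mafa, a basic leucine zipper activator of the insulin genes, had 2303 counts (75.2 CPM) in C2cd4a-GFP cells and 2388 (78.1 CPM) in control-GFP cells, at -0.05 (-0.14 to 0.03). Nkx6-1, a homeodomain factor that maintains beta-cell identity, had 2661 counts (86.9 CPM) in C2cd4a-GFP cells and 2680 (87.6 CPM) in control-GFP cells, at -0.01 (-0.09 to 0.07). The intervals of Mafa and Nkx6-1 include equality, and that of Pdx1 reaches 0.10 at its upper end.

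Neurod1, a basic helix-loop-helix factor that binds E-boxes of the insulin promoters, had 4676 counts (153 CPM) in C2cd4a-GFP cells and 3604 (118 CPM) in control-GFP cells. Its ratio was 0.37 (0.31 to 0.44), a 1.30-fold higher level. It rose in the authors' deposited table by 0.42 (DESeq2 adjusted p = 0.00175). Isl1, a LIM-homeodomain factor of all islet cell types, had 4696 counts (153 CPM) in C2cd4a-GFP cells and 4013 (131 CPM) in control-GFP cells, at 0.23 (0.16 to 0.29). The authors' deposited table also gives Isl1 0.23, with an adjusted p of 0.0995, short of the threshold. Insm1, a zinc-finger factor of endocrine and neuroendocrine cells, had 7370 counts (241 CPM) in C2cd4a-GFP cells and 6913 (226 CPM) in control-GFP cells, at 0.09 (0.04 to 0.14).

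The remaining core factors were slightly lower in C2cd4a-GFP cells. Pax6, a paired-box factor needed for hormone gene expression, had 6813 counts (223 CPM) in C2cd4a-GFP cells and 7640 (250 CPM) in control-GFP cells, at -0.17 (-0.21 to -0.12). Nkx2-2, a homeodomain factor that represses non-beta programmes, had 1917 counts (62.6 CPM) in C2cd4a-GFP cells and 2121 (69.4 CPM) in control-GFP cells, at -0.15 (-0.24 to -0.06). Both missed the threshold in the authors' deposited table (Pax6 -0.14, adjusted p = 0.374; Nkx2-2 -0.06, adjusted p = 0.769). Of the 8 core factors, 4 thus had an interval above equality, 2 below it and 2 across it. Over all measured genes these shares were 30.6%, 33.0% and 36.5%. None of the 8 reached 1.5-fold, where 4.23% of all measured genes were called higher and 4.23% lower.

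Factors of endocrine differentiation were split, with St18 and Rfx3 higher and Mnx1 lower. Mnx1, a homeodomain factor needed for the dorsal pancreas and for beta-cell fate in the mouse, lies on mm10 chromosome 5, 29473823 to 29478470, in 3 exons. It had 437 counts (14.3 CPM) in C2cd4a-GFP cells and 709 (23.2 CPM) in control-GFP cells. The ratio was -0.70 (-0.88 to -0.53), a 1.62-fold lower level, and Mnx1 fell by 0.63 in the authors' deposited table (DESeq2 adjusted p = 0.00114). Its transcripts have a GC content of 59.5%, and after the trend described below was removed its ratio was -0.39, under 1.5-fold.

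St18 and Rfx3 came close to 1.5-fold. St18, a MYT-family zinc-finger factor of endocrine progenitors and islets, had 3853 counts (126 CPM) in C2cd4a-GFP cells and 2682 (87.7 CPM) in control-GFP cells, at 0.52 (0.45 to 0.59). It missed the threshold in the authors' deposited table (0.42, adjusted p = 0.0640). Rfx3, a winged-helix factor of ciliated and endocrine cells, had 1164 counts (38.0 CPM) in C2cd4a-GFP cells and 816 (26.7 CPM) in control-GFP cells, at 0.51 (0.38 to 0.64). Rfx3 rose in the authors' deposited table by 0.46 (DESeq2 adjusted p = 0.00515). Glis3, a zinc-finger activator of the insulin gene, lies beside Rfx3 on mouse chromosome 19, with 251 kb between them. Glis3 had 331 counts (10.8 CPM) in C2cd4a-GFP cells and 260 (8.50 CPM) in control-GFP cells, at 0.35 (0.11 to 0.59), and it missed the threshold in the authors' deposited table (0.28, adjusted p = 0.493).

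The other endocrine factors differed less. Pax4, a paired-box repressor that favours beta over alpha fate, had 2542 counts (83.0 CPM) in C2cd4a-GFP cells and 3010 (98.4 CPM) in control-GFP cells, at -0.25 (-0.32 to -0.17). Myt1 had 5096 counts (166 CPM) in C2cd4a-GFP cells and 5571 (182 CPM) in control-GFP cells, at -0.13 (-0.19 to -0.08), opposite to its relative St18. Fev, an ETS factor of endocrine precursors, had 330 counts (10.8 CPM) in C2cd4a-GFP cells and 273 (8.93 CPM) in control-GFP cells, at 0.27 (0.04 to 0.51). Rfx6, which acts below Neurog3, had 724 counts (23.6 CPM) in C2cd4a-GFP cells and 747 (24.4 CPM) in control-GFP cells, at -0.05 (-0.20 to 0.10), and the progenitor factor Sox4 had 787 counts (25.7 CPM) in C2cd4a-GFP cells and 784 (25.6 CPM) in control-GFP cells, at 0.004 (-0.14 to 0.15). In the authors' deposited table these 5 had log2 fold changes from -0.24 for Pax4 to 0.36 for Fev, with adjusted p from 0.0884 to 0.962. Neurog3 had 0 counts in both libraries, so that each could hold at most 0.098 CPM (a floor of 3 counts).

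The measured foregut and hepatic factors had ratios near or below equality, except Hnf4g. Foxa2, a pioneer factor that opens chromatin in the early endoderm, had 2057 counts (67.2 CPM) in C2cd4a-GFP cells and 2186 (71.5 CPM) in control-GFP cells, at -0.09 (-0.18 to -0.002). Its relative Foxa1 had 90 counts in each (2.94 CPM in C2cd4a-GFP cells and 2.94 CPM in control-GFP cells), at -0.002 (-0.44 to 0.44), so that a difference of up to 0.44 either way was not detectable at this depth. Hnf4a, a nuclear receptor in which human mutations cause monogenic diabetes, had 2445 counts (79.9 CPM) in C2cd4a-GFP cells and 2644 (86.5 CPM) in control-GFP cells, at -0.11 (-0.19 to -0.03). Hnf4g had 99 counts (3.23 CPM) in C2cd4a-GFP cells and 67 (2.19 CPM) in control-GFP cells, at 0.56 (0.10 to 1.03), just under the 1.5-fold line at 1.48-fold. The homeodomain factor Prox1 had 181 counts (5.91 CPM) in C2cd4a-GFP cells and 223 (7.29 CPM) in control-GFP cells, at -0.30 (-0.59 to -0.01). None of these 5 passed in the authors' deposited table. Onecut1, which acts in pancreatic progenitors, and Nr5a2, a nuclear receptor of progenitors and acinar cells, had 0 counts in both libraries.

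Factors of other islet cell types were scarce. Hhex, the homeodomain factor of delta cells, had 0 counts in both libraries. The delta-cell hormone Sst had 8 counts in C2cd4a-GFP cells and 4 in control-GFP cells, and Lepr had 8 and 3. The measured delta-cell markers went both ways. Rbp4 had 55 counts in C2cd4a-GFP cells and 104 in control-GFP cells, at -0.92 (-1.42 to -0.44). Ghsr had 49 in C2cd4a-GFP cells and 29 in control-GFP cells, at 0.76 (0.06 to 1.47). Neither Rbp4 nor Ghsr passed in the authors' deposited table. Irx2, an alpha-cell homeodomain factor, had 129 counts (4.21 CPM) in C2cd4a-GFP cells and 108 (3.53 CPM) in control-GFP cells, at 0.25 (-0.13 to 0.64). Its relative Irx1 had 20 counts in C2cd4a-GFP cells and 13 in control-GFP cells. The abundant alpha-cell markers went both ways. The hormone gene Gcg had 2292 counts (74.9 CPM) in C2cd4a-GFP cells and 1511 (49.4 CPM) in control-GFP cells, at 0.60 (0.51 to 0.69), and Ttr was at 0.25 (0.22 to 0.28). Gc, which encodes the vitamin D-binding protein, had 5370 counts (175 CPM) in C2cd4a-GFP cells and 8788 (287 CPM) in control-GFP cells, at -0.71 (-0.76 to -0.66), and Slc7a2 was at -0.10 (-0.15 to -0.04). In the authors' deposited table Gcg rose by 0.49 and Gc fell by 0.69, and Ttr and Slc7a2 did not pass. The 7 alpha-cell markers together summed to 987 CPM in C2cd4a-GFP cells and 991 CPM in control-GFP cells, and their part in the ratio of Irx2 was not tested.

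Bach2 was the factor with the largest ratio. It encodes a basic leucine zipper repressor that pairs with small MAF proteins, is best known from lymphocytes and lies at a human type 1 diabetes risk locus. The gene lies on mm10 chromosome 4, 32417435 to 32586108, with 5 exons and 8493 bases of exon in the count table. Bach2 had 451 counts (14.7 CPM) in C2cd4a-GFP cells and 206 (6.74 CPM) in control-GFP cells. The ratio was 1.13 (0.89 to 1.37), a 2.19-fold higher level, and Bach2 rose in the authors' deposited table by 0.95 (DESeq2 adjusted p = 0.000275). With the length and GC trend removed the ratio was 0.89. An antisense gene, Bach2os, shares 396 bases of exon with it and had 35 counts in C2cd4a-GFP cells and 33 in control-GFP cells. The libraries were directional, per the labels' protocols, but no source used here says if strand was used in counting, so reads of the antisense gene cannot be told apart from those of Bach2 where they overlap.

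Bach2's relatives and partners showed smaller differences. Bach1, the widely expressed member of the pair, was at 0.53 (0.34 to 0.71) and missed the threshold in the authors' deposited table (0.36, adjusted p = 0.0653). The small MAF genes Mafg, Mafk and Maff were at 0.12 (-0.01 to 0.24), -0.20 (-0.37 to -0.02) and -0.38 (-0.54 to -0.22), and none of the 3 passed in the authors' deposited table. Esrrg, a nuclear receptor of metabolic maturation in beta cells, had 248 counts (8.10 CPM) in C2cd4a-GFP cells and 212 (6.93 CPM) in control-GFP cells, at 0.22 (-0.05 to 0.50). Tcf7l2, the Wnt effector at a strong human type 2 diabetes locus, was hardly present, and its 2 counts in C2cd4a-GFP cells and 1 in control-GFP cells give a ratio with a wide interval (1.00, -3.27 to 6.88).

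Related factors can be weighed against each other inside each library, a comparison that needs no scaling between libraries. The trend with exon length and GC, described below, stays in these shares, and its part in them was not tested. With that trend removed, the ratios were 0.25 for St18 and -0.28 for Myt1, and 0.22 for Rfx3 and -0.21 for Rfx6. Hnf4g was then at 0.31 and Hnf4a at -0.07. St18 and Rfx3 took larger shares of their pairs in C2cd4a-GFP cells. St18 made up 43.1% of the counts of St18 and Myt1 in C2cd4a-GFP cells (42.0 to 44.1, 95% exact Clopper-Pearson interval) and 32.5% in control-GFP cells (31.5 to 33.5). Rfx3 made up 61.7% of the counts of Rfx3 and Rfx6 in C2cd4a-GFP cells (59.4 to 63.9) and 52.2% in control-GFP cells (49.7 to 54.7). Per kilobase Rfx6 remained the more abundant of that pair, 1.57-fold in C2cd4a-GFP cells and 2.31-fold in control-GFP cells. Within the HNF4 pair, Hnf4g took 3.89% in C2cd4a-GFP cells (3.17 to 4.72) and 2.47% in control-GFP cells (1.92 to 3.13). The intervals of the libraries do not overlap in these 3 pairs, which speaks of these libraries and not of the conditions. How often the intervals of other gene pairs overlap was not computed. For single genes, the interval of the ratio lay above equality in 30.6% of all measured genes and below it in 33.0%.

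In the other pairs the intervals of the libraries overlapped. Foxa1 took 4.19% of the counts of Foxa1 and Foxa2 in C2cd4a-GFP cells (3.38 to 5.13) and 3.95% in control-GFP cells (3.19 to 4.84). Pax4 took 27.2% of the counts of Pax4 and Pax6 in C2cd4a-GFP cells (26.3 to 28.1) and 28.3% in control-GFP cells (27.4 to 29.1). Per kilobase Foxa2 exceeded Foxa1 by 34.3-fold in C2cd4a-GFP cells and 36.4-fold in control-GFP cells, whereas Pax4 over Pax6 was 1.01 in C2cd4a-GFP cells and 1.07 in control-GFP cells.

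**Figure D3:**
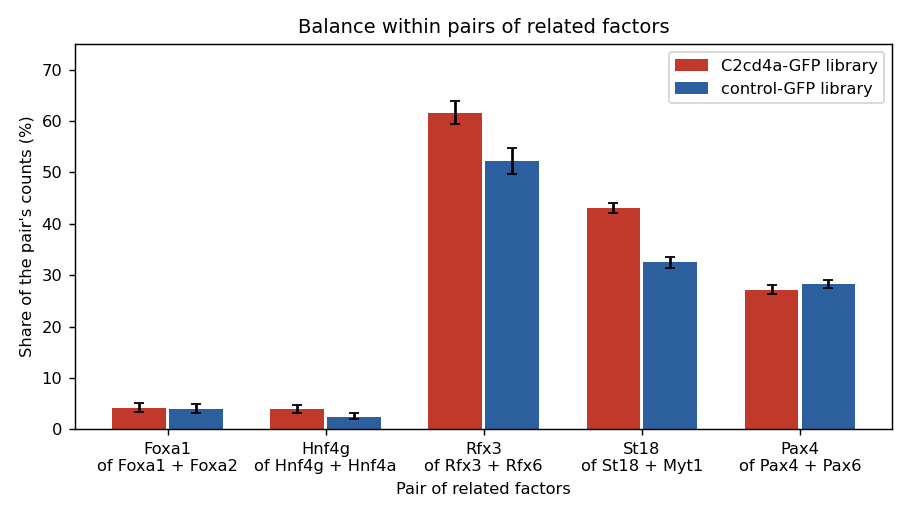
Share of a pair's counts taken by its first gene, in percent, for 5 pairs of related factors, with bars for the C2cd4a-GFP library (red, left) and the control-GFP library (blue, right) and 95% Clopper-Pearson intervals. St18 (43.1% in C2cd4a-GFP cells, 32.5% in control-GFP cells) and Rfx3 (61.7% in C2cd4a-GFP cells, 52.2% in control-GFP cells) differ most, and Foxa1 and Pax4 have overlapping intervals.

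The factors also share features that the choice by name did not use. On chromosome 2 lie 7 of the 30 (23.3%, beside 8.00% of all gene rows), and 3 of these are close neighbours, Insm1, Nkx2-2 and Foxa2, with 0.953 and 0.856 Mb between them. Their ratios of 0.09, -0.15 and -0.09 did not share a direction. Transcripts of the 25 measured factors ran from 42.4% to 65.0% GC (median 52.8%, beside 51.0% over 12216 measured genes with a value), and from 1080 to 9341 bases of exon.

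Ratios moved with both features, over all genes and over the factors. Across 12216 measured genes the log2 ratio had a Spearman's rho of -0.48 with GC content and 0.35 with exon length, and across the 25 factors -0.42 and 0.37. These are descriptions over genes of the same 2 libraries, not over independent samples. Of the 8 measured factors with the lowest GC (42.4 to 50.4%), 6 had a ratio above equality, with a median of 0.44. Of the 8 with the highest GC (59.0 to 65.0%), 2 did, with a median of -0.03. After the trend with length and GC was removed, both medians were close, at 0.23 and 0.24. That trend was fitted to the ratios of all measured genes, these factors among them, so the closeness is no separate check. In the authors' deposited table the rho over all 13592 genes with an adjusted p and a GC value was -0.32 with GC and 0.20 with length, and -0.26 and 0.29 over the 25 factors.

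**Figure D4:**
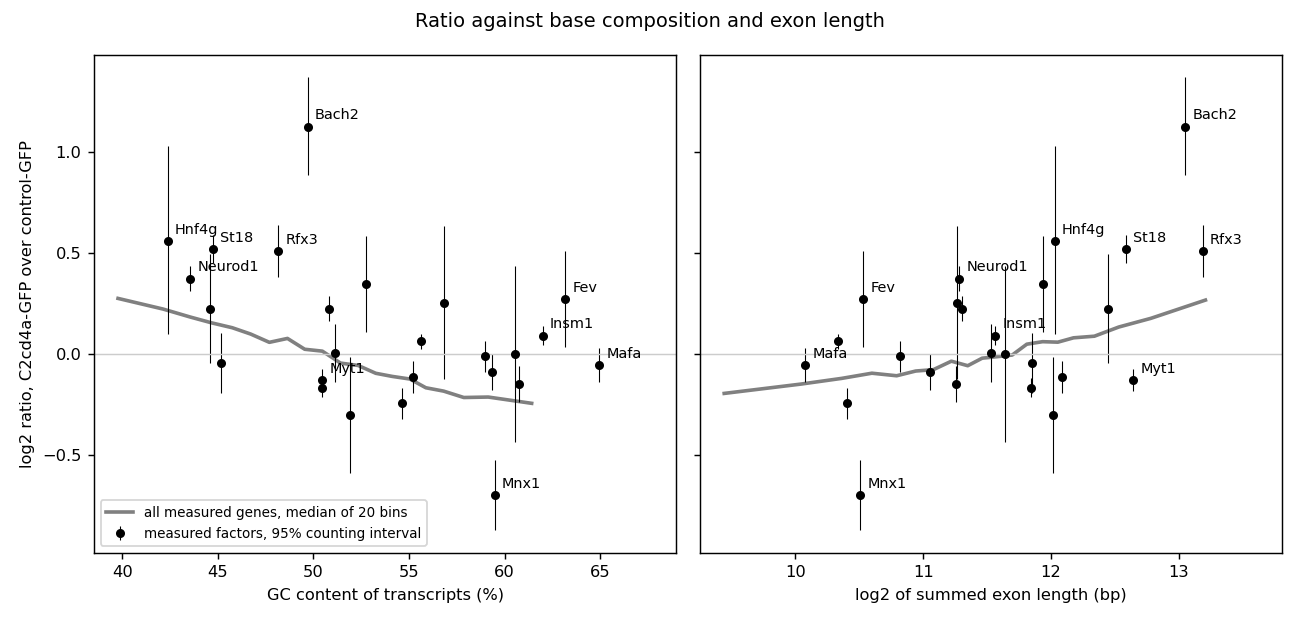
Log2 ratio of C2cd4a-GFP over control-GFP against GC content in percent (left) and log2 exon length in bp (right); points are the 25 measured factors with 95% counting intervals, and the grey line joins medians of 20 bins of all measured genes. Bach2 lies far above and Mnx1 far below the line, while Fev, St18, Rfx3 and Neurod1 lie above it by less than Bach2. With the length and GC trend removed, Fev was at 0.59 and Mnx1 at -0.39.

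With that trend removed, several core factors that had been near equality were higher. Pdx1 was then at 0.31, Mafa at 0.30, Nkx6-1 at 0.27 and Insm1 at 0.31, close to Neurod1 at 0.26 and Isl1 at 0.28. The median of the 25 factors became 0.22, beside 0.001 over all measured genes. St18 was at 0.25 and Rfx3 at 0.22 on this scale, and Fev, with 63.2% GC, reached 0.59. Bach2 was still at least 1.5-fold higher, and Mnx1 no longer reached 1.5-fold. The part of base composition and length in the ratios was not tested.

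Genes around the network were described in 3 lists. These lists were chosen with earlier results of these data known, so their counts beside the share over all genes are a description only. Of 28 beta-cell function genes, many of them targets of these factors, all were measured, 5 were at least 1.5-fold lower and 0 were higher (4.23% of all measured genes each way), and the median ratio was -0.15. The 5 were the cation channel Trpm5 at -1.25, the insulin gene Ins1 at -0.91, the glucose transporter Slc2a2 at -0.77, the neuropeptide Npy at -0.73 and the granule protein Sytl4 at -0.69. Trpm5 had 594 counts in C2cd4a-GFP cells and 1410 in control-GFP cells. By the authors' deposited table, 11 of the 28 fell (6.58% of all genes) and 0 rose. They also include G6pc2, Pcsk2, Ucn3, Ero1lb and Sstr3, with log2 fold changes from -0.45 to -0.23. Ins2 (-0.07) and Iapp (-0.03) did not pass there, and their ratios between the 2 libraries were -0.20 and -0.08. The measured factors had 13 ratios above and 12 below equality, beside 6273 above and 6486 below over all measured genes. The function genes had 5 above and 23 below. The difference between the lists was not tested.

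**Figure D5:**
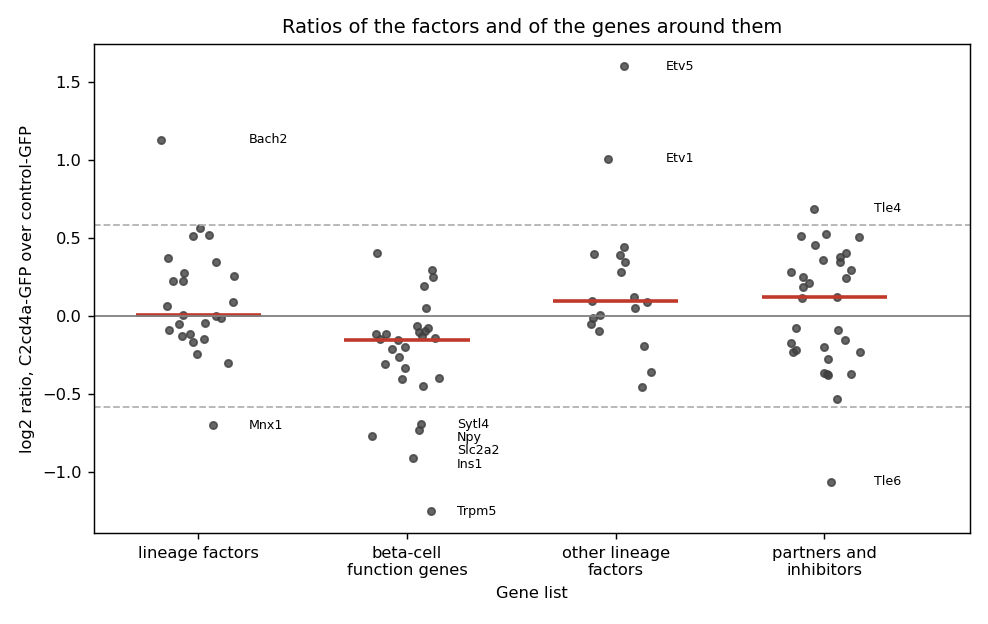
Log2 ratio of C2cd4a-GFP over control-GFP for measured genes of 4 lists, 1 point per gene (spread sideways at random), with red bars for medians and dashed lines at 1.5-fold. The lineage factors centre on equality (0.004) and the beta-cell function genes lie lower (-0.15), with Etv5, Etv1, Bach2, Trpm5 and Tle6 farthest out.

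Other lineage factors showed the ETS genes Etv5 and Etv1 high. Of 30 genes, 18 were measured. Of the 18, 9 lay within 0.2 of equality on the log2 scale, close to the 48.2% of all measured genes. Etv5 had 1058 counts in C2cd4a-GFP cells and 349 in control-GFP cells, at 1.60 (1.42 to 1.78), and Etv1 had 1550 in C2cd4a-GFP cells and 770 in control-GFP cells, at 1.01 (0.88 to 1.13). Of 21 such genes with an adjusted p, 5 rose in the authors' deposited table (7.0% of all genes) and 2 fell (6.58%), where Pax2, Tox3 and Zfp148 rose besides the ETS pair, and Scrt1 and Hopx fell. The acinar factors Ptf1a and Rbpjl and the duct factor Sox9 had 0 counts in both libraries.

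Among 34 partners and inhibitors of the factors, 32 were measured, with a median of 0.12. Tle4, a Groucho corepressor, had 187 counts in C2cd4a-GFP cells and 116 in control-GFP cells, at 0.69 (0.35 to 1.03), and Tle6 had 36 in C2cd4a-GFP cells and 75 in control-GFP cells, at -1.06 (-1.68 to -0.47). The authors' deposited table tested 33 of them, of which 4 rose (Id2, Id4, Tle1 and Tle4; 7.0% of all genes did) and 3 fell (Pbx2, Ctnnbip1 and Rcor2; 6.58% of all genes did). Id2, which encodes an inhibitor of basic helix-loop-helix factors, had 6291 counts in C2cd4a-GFP cells and 4582 in control-GFP cells, at 0.46 (0.40 to 0.51). The E-protein genes whose products pair with NEUROD1 did not pass there, with ratios of -0.23 for Tcf3, 0.24 for Tcf4 and 0.40 for Tcf12.

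Beta-cell markers dominated in both libraries. All 11 were measured, at a sum of 78417 CPM in C2cd4a-GFP cells and 89649 CPM in control-GFP cells. Markers of acinar, duct, mesenchymal, endothelial and white blood cells summed to between 0.784 and 42.3 CPM in C2cd4a-GFP cells and between 1.05 and 53.8 CPM in control-GFP cells, and Cpa1, Krt19, Col3a1 and Cdh5 had 0 counts in both.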

How the data were processed

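Raw counts per gene were deposited by the authors for 2 libraries (42 bp paired-end reads of poly-A RNA, per the labels' protocols). STAR 2.5.2b, featureCounts, Subread 1.5.2, DESeq2 1.14.1 and the build mm10 come from the submitters' processing notes, which give them no role. The deposited log2 fold changes, p-values and adjusted p-values are the authors'. A second deposited table holds 1 normalized score for each gene in each condition, as whole numbers, and is quoted only where a gene stands at 0.

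Counts were scaled with TMM factors (edgeR 4.0.16, R 4.3.3), 1.02 for C2cd4a-GFP and 0.985 for control-GFP, and a ratio has an exact Clopper-Pearson interval given the gene's summed counts. With 1 library per group no test was made. A gene was called at 1.5-fold with the interval excluding equality and a mean of at least 1 CPM. GC content is the median over GENCODE M21 transcripts, and trends were lowess curves (span 0.3, statsmodels 0.14.6). The labels mention no molecular identifiers, and intervals and floors therefore express counting error alone. The calculation was tested on simulated counts. All 30 factors are named, and of the lists the genes called or passing in the authors' table; others were named after their values were seen. The factors and lists were chosen with earlier results of these data known. Of the gene rows, 874 without a usable symbol were kept under their gene ID. Some genes of the lists are not reported here.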

Additional observations from a re-analysis of the deposited data

How the results depend on the processing

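Ratios of the 25 measured factors stayed inside their counting intervals under DESeq2 1.42.0 size factors, upper-quartile scaling, thinning to the same total and a prior count of 2. Under total-count scaling 1 of 25, Pdx1, left its interval (0.10). With the exon length trend removed 7 of 25 did, and 15 of 25 with length and GC, an alternative chosen after seeing the data. No called factor changed sign. With length and GC removed 6 of 25 factors did (Mafa, Nkx6-1, Nkx2-2, Foxa1, Foxa2 and Esrrg), and at most 2 under any other setting. Bach2 ran from 0.89 to 1.17 and Mnx1 from -0.72 to -0.39 over these settings. The number of factors called higher was 2 with total counts and with thinning (Hnf4g joined) and 2 with length and GC removed (Fev joined), and the number called lower was 0 with that removal and with a 2-fold rule. The median of the factors was 0.22 with length and GC removed. Over all genes, 306 were higher and 296 lower with a minimum of 5 CPM, 116 and 88 with a 2-fold rule, and 319 lower with length and GC removed, beside 540 each. Among beta-cell function genes 1 was lower by a 2-fold rule. Among partners and inhibitors 2 were lower with no filter, 0 higher and 0 lower with 5 CPM, 0 higher with a 2-fold rule and 0 higher with length and GC removed. The cause was not tested. No paired analysis was possible because each group has 1 library, and for the same reason no replicate could be left out. Depth limits Foxa1, Hnf4g, Irx2, Prox1 and Esrrg, at 67 to 248 counts. Bach2 also had few counts in control-GFP cells (206), and its interval ran from 0.89 to 1.37.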

Other observations

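Hhex and Neurog3 had 0 counts in both libraries, and the authors' normalized values list both genes at 0, yet the authors' deposited table gives them p-values of 0.783 and 0.516. Nr5a2 and Onecut1, also at 0 throughout, have no p-value there. Antisense genes share exon bases with Nkx2-2 (Nkx2-2os, 278 bases) and Prox1 (Prox1os, 134 bases) as well as Bach2. Nkx2-2os had 9 counts in C2cd4a-GFP cells and 16 in control-GFP cells, and Prox1os had 2 in C2cd4a-GFP cells and 8 in control-GFP cells.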
